A study of Mus musculus with 2 samples.

Results

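The 36 genes described here encode the Eph receptors, the ephrins, the Slits, the Robo receptors, the netrins and the netrin receptors, and all of their rows were taken by gene name from a table of transcript abundance in the neonatal mouse brain. They are 36 of 51905 genes and 166 of 128603 transcripts in that table. RNA-Seq compared Mir125b-2 m-/p+ mice (mKO), which lack the maternal copy of the microRNA gene Mir125b-2 and keep the paternal copy, with wild-type (m+/p+, WT) mice. All mice were C57BL/6 (C57BL/6J in the methods of the study) at postnatal day 0, the deletion was constitutive, and each genotype was sequenced as 1 library of pooled RNA from 6 animals. No error between animals or libraries can therefore be given, and the values compare these libraries, with no test between genotypes. The mature miR-125b-5p is also made from Mir125b-1, which both genotypes carry.

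The labels name the tissue as whole brain, but their protocol describes the hippocampus, and the methods of the study give brain. Of 13 marker genes of regions outside the hippocampus, all 13 were at 0.1 FPKM or more in both libraries, and they summed to 61.6 FPKM in mKO and 58.2 FPKM in WT. Single markers differed more than the sum, in both directions. They ranged from Hcrt, with 0.781 FPKM in mKO and 2.02 FPKM in WT, to Pcp2, with 4.91 FPKM in mKO and 3.69 FPKM in WT. The sums therefore do not show that both pools held the same mix of regions. FPKM (fragments per kilobase of transcript, scaled to the mapped fragments of the library) is a level per length, so levels of different genes can be compared. Neuronal markers summed to 1640 FPKM in mKO and 1628 FPKM in WT. All 6 endothelial markers were lower in mKO, with a sum of 80.4 FPKM against 90.6 FPKM in WT, and so were all 5 progenitor markers, with 90.6 FPKM in mKO against 101.6 FPKM in WT. In RNA from a whole tissue, fewer cells of a type and less RNA per cell cannot be told apart. The Mir125b-2 hairpin was listed at the floor of the table (1e-05 FPKM, which stands for 0) in both libraries, so the genotype could not be checked on the deleted RNA. Read counts were not used here, and the depth of the libraries is unknown.

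Axons find their targets by reading attractive and repulsive cues with receptors on the growth cone. Eph receptors are receptor tyrosine kinases that bind ephrins on neighbouring cells; A ephrins are held in the membrane by a lipid anchor and B ephrins cross it, so that signals can pass both ways, and the pair commonly repels axons and sorts cells at tissue borders. Slits are secreted repellents read by Robo1 and Robo2, which keep axons from crossing or recrossing the midline. Netrin attracts axons through Dcc and Neo1 and repels them through the Unc5 receptors. All of these systems are in use in the newborn brain, where tracts are being laid down and refined.

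A microRNA acts mainly through pairing of its seed, bases 2 to 8, with 3′UTRs, so the sequences of miR-125b-5p and of its matches in these genes come first. The mature sequence below is from RefSeq (GRCm38.p6), where Mir125b-2 encodes it at chr16:77646279-77646300 (+) and Mir125b-1 encodes the same bases at chr9:41581940-41581961 (+). Mir125a, on chromosome 17, gives a microRNA with the same seed, and so do Mir351, Mir6367 and Mir6394. The capitals mark the seed.
mmu-miR-125b-5p: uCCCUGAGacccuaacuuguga
mmu-miR-125a-5p: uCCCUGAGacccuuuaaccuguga

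The 7-base match to the seed, CTCAGGG, was searched on the sense strand of annotated 3′UTRs (GENCODE M21). It was found in 4 of the 34 guidance genes with a mean of at least 1 FPKM (11.8%) and in 2333 of 12755 protein-coding genes with that mean and a 3′UTR (18.3%). The 4 genes were Epha7, Epha10 and Ephb2, all Eph receptors, and Neo1, a receptor of netrins and of RGM proteins. All 5 matches lay in the last exon. In Epha10 they lay at chr4:124916252-124916258 and chr4:124917094-124917100 (+), in Epha7 at chr4:28966782-28966788 (+), in Ephb2 at chr4:136648801-136648807 (-), and in Neo1 at chr9:58875260-58875266 (-), all on GRCm38. The windows are written 5′ to 3′ in the sense of the transcript, as DNA, with the match in capitals.
Epha10 first site: caagtggtgctgagCTCAGGGtctggac
Epha10 second site: atggcatcagcaggCTCAGGGtccaagc
Epha7 site: tttgataattagtgCTCAGGGgaggggg
Ephb2 site: cgacgctacccaaaCTCAGGGgccctag
Neo1 site: agcacttgtgttacCTCAGGGccttggt

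None of these sites was followed by the A that would make an 8-base match, which 6.57% of protein-coding genes held. The sites were also not always in the main transcript of their gene. The most abundant Epha7 transcript, of 610 residues, ends before the site, and in Ephb2 the site lay only in the transcript with the long 3′UTR of 7783 bases, so that Epha10 and Neo1 alone (2 of 34 genes) held a match in their most abundant coding transcript, against 14.4% of protein-coding genes. A weaker match, to bases 2 to 7 followed by A, was added after the data were seen. It was held by 6 of the 34 genes (17.65%, against 17.5% of protein-coding genes), which were Epha4, Ephb2, Ephb4, Dcc, Unc5c and Unc5d. The Ephb4 match lay in ENSMUST00000144296 alone, a transcript annotated for nonsense-mediated decay that was at the floor in both libraries. The windows of Epha4, at chr1:77368239-77368245 (-), and of Unc5c, at chr3:141829160-141829166 (+), are shown because the prediction lists used by the study name both genes. Unc5c was in the lists of miRDB, microT-CDS and TargetScan, Epha4 and Epha10 were in miRDB, and Epha7 and Neo1 were in TargetScan.
Epha4 site: gctataacatcaaaTCAGGGAattagaa
Unc5c site: tattggcattggtaTCAGGGAagtggag

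The genes with a seed match had nearly the same level in both libraries. Neo1 had 62.0 FPKM in mKO and 61.7 FPKM in WT, summed over its transcripts. Ephb2 had 23.3 FPKM in mKO and 22.0 FPKM in WT, Epha7 had 28.1 FPKM in mKO and 27.6 FPKM in WT, and Epha10 had 9.23 FPKM in mKO and 9.82 FPKM in WT. The median log2 ratio of mKO over WT, taken after adding 0.1 FPKM to both sums, was 0.02 over the 4 genes with a match and 0.01 over the 30 without. Over all protein-coding genes it was -0.006 with a match and 0.003 without. Counting only the most abundant coding transcript, the median was -0.04 over 2 members with a match and 0.02 over the other 32. For the weaker match it was 0.05 over 6 members and 0.01 over the other 28. Unc5c, the only member in all 3 prediction lists, had 19.0 FPKM in each library. A match is a description of letters in a window and does not show that the microRNA binds there.

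Guidance genes were plentiful in the newborn brain and differed little between the genotypes. Of the 36 genes, 34 had a mean of at least 1 FPKM, with a median of 14.03 FPKM over these genes against 10.96 FPKM over 12863 protein-coding genes. The exceptions, below that mean, were the epithelial receptors Epha1, with 0.196 FPKM in mKO and 0.150 FPKM in WT, and Epha2, with 0.877 FPKM in mKO and 0.706 FPKM in WT. Only Efna1 was higher in mKO by 1.2-fold or more, which is 1 of 34 genes against 6.13% of protein-coding genes, and none was lower by 1.2-fold or more, against 7.49% of protein-coding genes. A total of 30 of the 34 genes lay within 1.1-fold of the WT value, against 65.1% of protein-coding genes. The median log2 ratio was 0.01 over the 34 genes and 0.00 over all protein-coding genes, with 21 members above and 13 below their WT value, or 17 above and 17 below once both libraries were scaled to the same total FPKM.

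**Figure D1:**
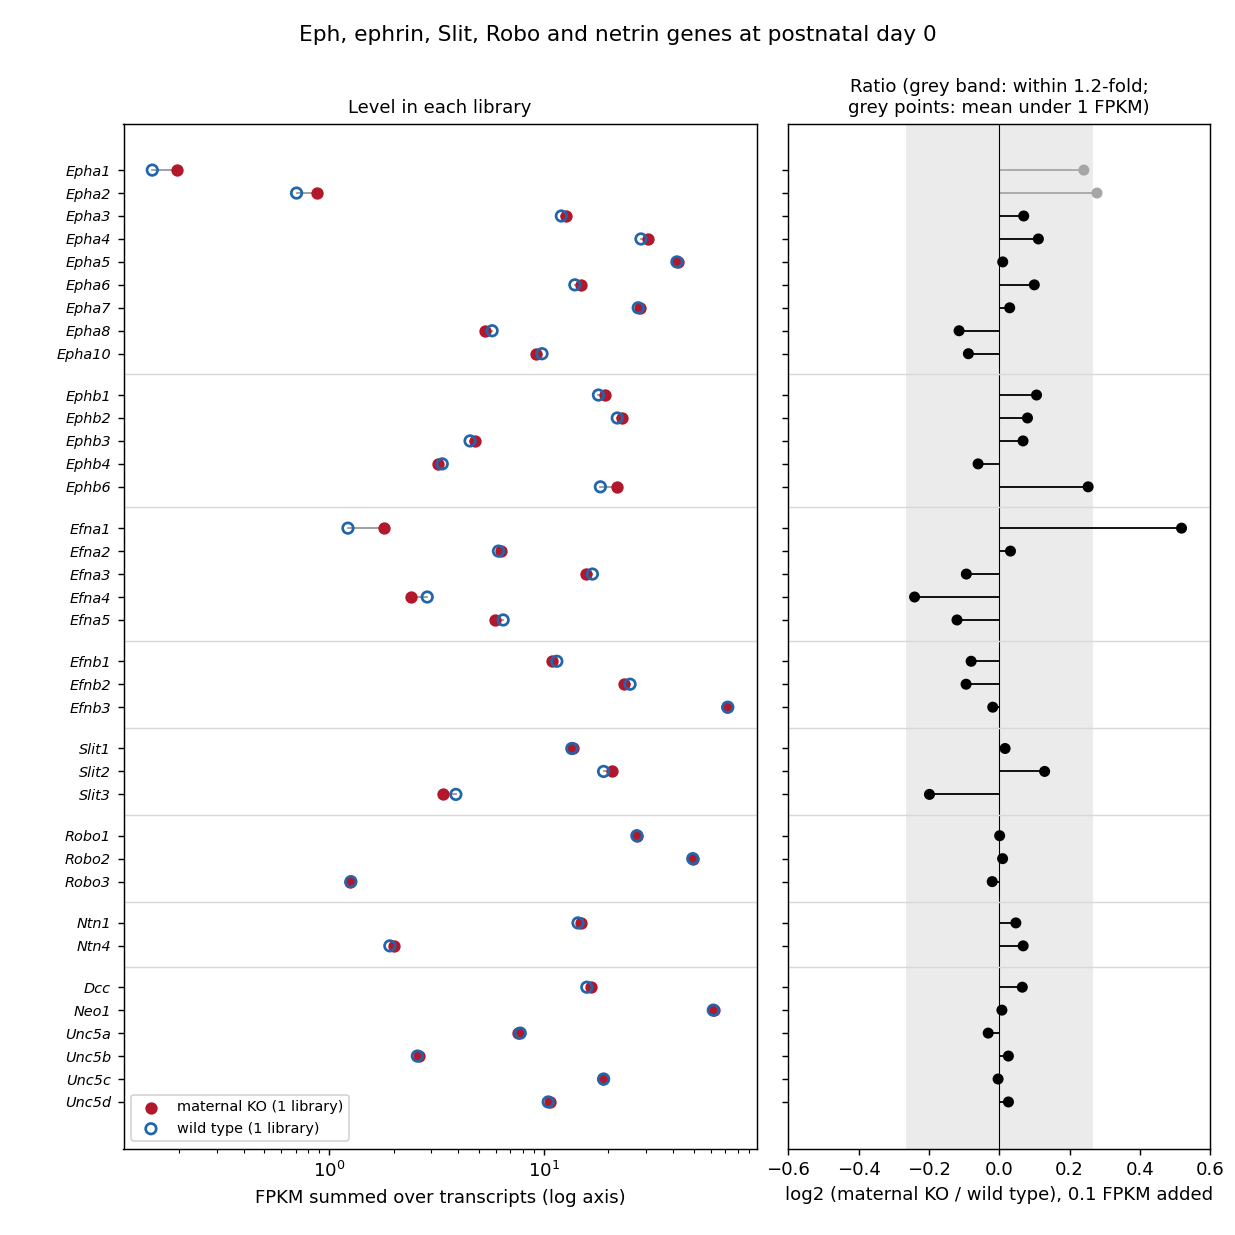
Levels of the 36 guidance genes (left, FPKM summed over transcripts, log axis) in the mKO library (filled) and the WT library (open), and the log2 ratio of mKO over WT after adding 0.1 FPKM (right). Lines separate the families, the grey band spans 1.2-fold in either direction, and grey points are Epha1 and Epha2, whose means are below 1 FPKM. Of the genes above that mean, Efna1 alone lies outside the band.

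Counts past the fold threshold are set here beside those of protein-coding genes at the same level. In protein-coding genes with a mean of 1 to 5 FPKM, 13.2% were 1.2-fold higher and 18.7% were 1.2-fold lower in mKO, and 1 of the 8 guidance genes at that level, Efna1, was higher. Between 5 and 20 FPKM the shares were 4.92% and 5.30%, and none of 16 guidance genes passed. At 20 FPKM or more they were 1.66% and 0.908%, and none of 10 passed. With 8, 16 and 10 guidance genes, these counts cannot show whether the members differed less than other genes. The scatter of gene ratios against level shows the same spread, wide at low and narrow at high levels.

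**Figure D2:**
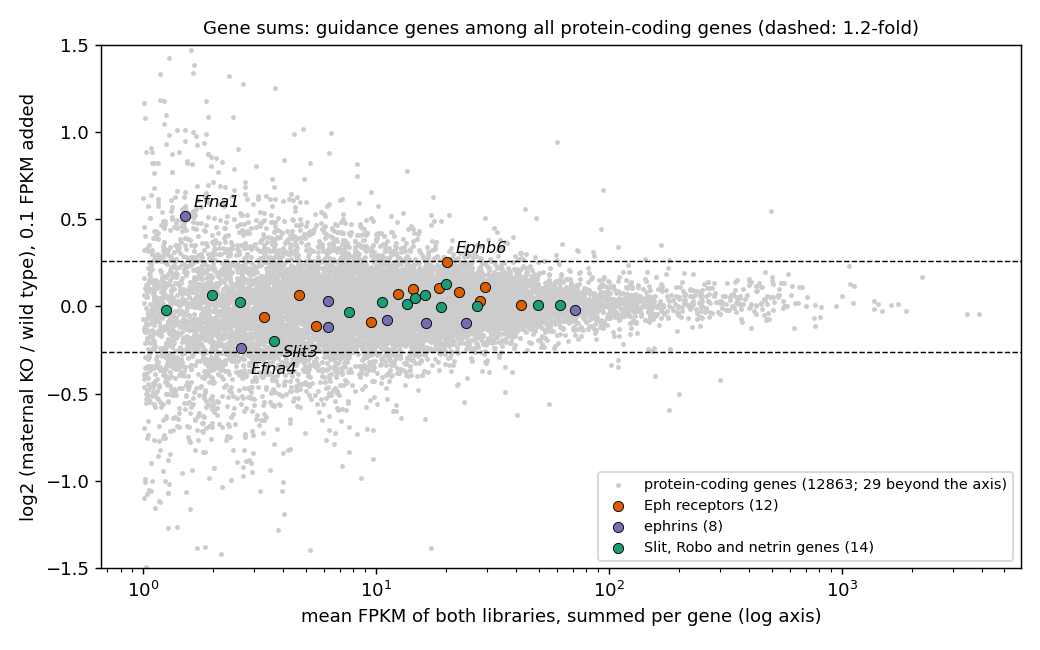
Log2 ratio of mKO over WT gene sums (0.1 FPKM added) against the mean FPKM of both libraries (log axis), for 12863 protein-coding genes (grey) and 34 guidance genes (colored by family); dashed lines mark 1.2-fold. Efna1 lies above the upper line, and Ephb6, Efna4 and Slit3 lie near but inside the lines.

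The A class Eph receptors, which mostly bind A ephrins and map axons in the visual system, the hippocampus and the cortex, had Epha5 as the most abundant by summed FPKM, with 42.0 FPKM in mKO and 41.7 FPKM in WT. Over protein-coding transcripts alone Epha4 stood above it, with 25.6 FPKM in mKO and 25.3 FPKM in WT, against 21.1 FPKM in mKO and 19.9 FPKM in WT for Epha5. Epha4, which binds ephrins of both classes, had 30.7 FPKM in mKO and 28.4 FPKM in WT, a log2 ratio of 0.11. In the sums Epha4 and Epha7 followed Epha5 in both libraries. Epha6 had 15.0 FPKM in mKO and 13.97 FPKM in WT, and Epha3 had 12.7 FPKM in mKO and 12.1 FPKM in WT. Epha8 had 5.31 FPKM in mKO and 5.75 FPKM in WT. Epha8 and Epha10, whose kinase domain is thought to be inactive, were the 2 of the 7 A class receptors at or above 1 FPKM that had a lower value in mKO. The A class summed to 143.0 FPKM in mKO and 139.3 FPKM in WT.

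The B class Eph receptors, which mostly bind B ephrins and act in commissure formation and at excitatory synapses, summed to 72.5 FPKM in mKO and 66.3 FPKM in WT, a ratio of 1.09 and the highest ratio of the 8 families. Ephb6, a member without kinase activity, had 21.9 FPKM in mKO and 18.4 FPKM in WT, a ratio of 1.19, and made up 56.5% of the class difference. A single noncoding transcript of Ephb6 carried much of its own difference, and without it the gene summed to 19.1 FPKM in mKO and 17.7 FPKM in WT. Ephb1 had 19.4 FPKM in mKO and 17.99 FPKM in WT, and Ephb3 had 4.76 FPKM in mKO and 4.54 FPKM in WT. Ephb4, the venous receptor of Efnb2 in blood vessels, had 3.23 FPKM in mKO and 3.37 FPKM in WT. Across both classes 9 of 12 receptors were above and 3 below their WT value, with a median log2 ratio of 0.07 (8 above and 4 below when scaled to the same total). Over all protein-coding genes 50.4% were above WT, and the median absolute log2 ratio was 0.09.

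Most ephrins, their ligands, had slightly lower values in mKO than in WT. Of 8 ephrins, 6 were below their WT value with and without that scaling, against 49.6% of protein-coding genes without it, the median log2 ratio was -0.09, and the sums were 137.9 FPKM in mKO and 142.4 FPKM in WT. Efnb3, a midline barrier for corticospinal axons, was the most abundant of the 36 genes, with 71.1 FPKM in mKO and 72.0 FPKM in WT. Efnb2, which marks arteries and also acts in neurons, had 23.6 FPKM in mKO and 25.3 FPKM in WT. Efnb1, which helps to form the corpus callosum, had 10.9 FPKM in mKO and 11.5 FPKM in WT. All 3 B ephrins were thus lower in mKO by log2 values of 0.02 to 0.09. Beside them stood the lower sums of endothelial and progenitor markers given above, of 3 pericyte markers (26.04 FPKM in mKO and 29.3 FPKM in WT, all 3 lower) and of 4 astrocyte markers (118.1 FPKM in mKO and 122.5 FPKM in WT, all 4 lower). Higher sums in mKO were those of choroid plexus markers (563.4 FPKM, against 526.8 FPKM in WT) and oligodendrocyte precursor markers (75.4 FPKM, against 73.8 FPKM in WT). Members of these sets, and of the microglial and meningeal fibroblast sets, went in both directions. The part of any cell type in the ephrin values was not tested.

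Among the A ephrins, Efna3 had 15.8 FPKM in mKO and 16.9 FPKM in WT, and Efna5, a repellent that maps retinal and hippocampal axons, had 5.95 FPKM in mKO and 6.47 FPKM in WT. Efna2 had 6.30 FPKM in mKO and 6.16 FPKM in WT, so that Efna2 and Efna5 stood in a different order in the 2 libraries. In the other 7 families the order of the gene sums was the same in both. When only protein-coding transcripts were summed, Epha6 and Epha10 also changed places between the libraries, and so did Ephb1 and Ephb6. Efna4 had 2.41 FPKM in mKO and 2.87 FPKM in WT, a log2 ratio of -0.24, the lowest of the 34. Efna1, a ligand found on vessels as well as on neural cells, had 1.80 FPKM in mKO and 1.22 FPKM in WT, a log2 ratio of 0.52, the highest of the 34. Efna1, Efna3 and Efna4 lie side by side on chromosome 3, at chr3:89271733-89281142, chr3:89313899-89322965 and chr3:89333390-89338028 (all on the minus strand), and their ratios ran in different directions. Efna1 was the only ephrin past 1.2-fold.

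The Robo receptors had nearly equal levels in both genotypes, and the Slit genes differed slightly more. Robo2 had 49.8 FPKM in mKO and 49.5 FPKM in WT, and Robo1 had 27.2 FPKM in each. Robo3, a receptor of commissural neurons, had 1.25 FPKM in mKO and 1.26 FPKM in WT. The 3 Robo ratios spanned log2 values of -0.02 to 0.01. Slit2 had 20.8 FPKM in mKO and 19.0 FPKM in WT, Slit1 had 13.7 FPKM in mKO and 13.5 FPKM in WT, and Slit3, the scarcest Slit, had 3.38 FPKM in mKO and 3.90 FPKM in WT, a log2 ratio of -0.20. Over protein-coding transcripts alone Slit1 stood above Slit2, with 12.99 FPKM in mKO and 13.1 FPKM in WT for Slit1 and 6.09 FPKM in mKO and 5.84 FPKM in WT for Slit2.

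The netrin genes were likewise close in both libraries. Ntn1, the main attractant of commissural axons, had 14.9 FPKM in mKO and 14.4 FPKM in WT, and Ntn4, a netrin of basement membranes, had 2.02 FPKM in mKO and 1.92 FPKM in WT. Neo1 was the most abundant of the netrin receptors. Dcc, the receptor for attraction, had 16.6 FPKM in mKO and 15.9 FPKM in WT. Unc5d had 10.7 FPKM in mKO and 10.5 FPKM in WT, Unc5a had 7.60 FPKM in mKO and 7.77 FPKM in WT, and Unc5b, which also acts in endothelium, had 2.63 FPKM in mKO and 2.58 FPKM in WT. The 4 Unc5 genes summed to 39.9 FPKM in each library.

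Genes that act with these receptors also differed little between the libraries. A list of 56 partners (cytoplasmic effectors, regulators and other ligands) held 54 with a mean of at least 1 FPKM, of which none was 1.2-fold higher and none was 1.2-fold lower. Of these, 51 had a mean of at least 5 FPKM, a level at which 3.60% of protein-coding genes were 1.2-fold higher and 3.51% were 1.2-fold lower. Their median log2 ratio was 0.01, and the medians were 0.02 for Eph and ephrin effectors, 0.06 for Slit and Robo effectors, and -0.02 for netrin effectors and other ligands. Tiam1, a Rac activator recruited by Eph receptors, had the highest ratio, with 12.2 FPKM in mKO and 10.3 FPKM in WT. Evl, an actin regulator of the Ena/VASP family, had 87.6 FPKM in mKO and 75.1 FPKM in WT, and Ndfip2, an adaptor of Nedd4 ubiquitin ligases, had 35.5 FPKM in mKO and 31.2 FPKM in WT. At the lower end stood Draxin, a secreted repellent that binds netrin receptors, with 9.86 FPKM in mKO and 11.7 FPKM in WT, then Pick1, a PDZ protein that binds Eph receptors and ephrins, with 23.6 FPKM in mKO and 26.3 FPKM in WT, and the kinase Src, with 26.2 FPKM in mKO and 29.0 FPKM in WT.

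Mir125b-2 lies on mouse chromosome 16, as do 5 of the guidance genes. Robo2 is 3.23 Mb away, Robo1 4.60 Mb, Epha3 13.8 Mb, Epha6 17.0 Mb and Ephb3 56.4 Mb. All 5 had a log2 ratio between 0.00 and 0.10, with a median of 0.07, against 0.01 for the other 29. Scaled to the same total, 3 were above and 2 were below their WT value. Among these 5, Robo1 and Robo2 had the ratios nearest to 0. The noncoding host gene Mir99ahg, which is not a member, had 35.7 FPKM in mKO and 28.1 FPKM in WT. Whether distance from Mir125b-2 has a part in these values was not tested.

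Single transcripts varied more than the gene sums. Of the 166 transcripts, 110 had a mean of at least 0.3 FPKM, and 6 of these were 2-fold higher in mKO (5.45%, against 8.08% of 50873 transcripts with that mean) and 3 were 2-fold lower (2.73%, against 7.77%). All 34 transcripts with a mean of at least 5 FPKM lay between 0.887 and 1.11 of the WT value. They include the most abundant transcript of 25 of the 26 genes with a mean of at least 5 FPKM, all but Slit2. The 9 transcripts past 2-fold had a mean of 2.21 FPKM or less. Between 0.3 and 1 FPKM, 4 of 25 guidance transcripts were 2-fold higher, against 15.5% of all transcripts at that level, and 3 were 2-fold lower, against 15.98%. Between 1 and 5 FPKM, 2 of 51 were higher, against 6.01%, and none was lower, against 4.89%. From 5 FPKM the shares over all transcripts were 1.15% higher and 1.12% lower. Of all 166 transcripts, 30 were at the floor in both libraries, 8 in mKO alone and 7 in WT alone. All of the 30, 7 of the 8 and all of the 7 had a mean below 0.3 FPKM. The share of all transcripts at the floor in 1 library alone is not given here, so these counts cannot be set beside it.

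**Figure D3:**
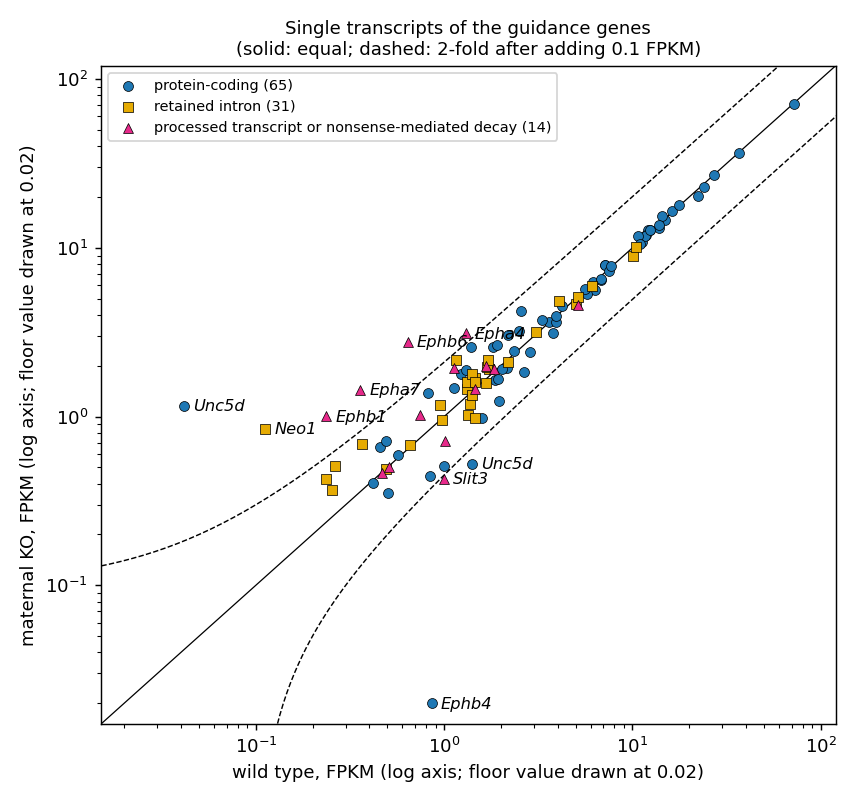
FPKM of the 110 guidance gene transcripts with a mean of at least 0.3 FPKM, with mKO on the vertical and WT on the horizontal log axis; the solid line marks equal values, and the dashed lines mark 2-fold after adding 0.1 FPKM. The named points are the 9 transcripts past 2-fold, all with a mean of 2.21 FPKM or less.

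Only 2 transcripts past 2-fold had a mean of at least 1 FPKM. In Ephb6 this was ENSMUST00000170624, a processed transcript of 714 bases with no coding region, at 2.77 FPKM in mKO and 0.642 FPKM in WT. In Epha4 it was ENSMUST00000190149, a transcript of 3043 bases annotated for nonsense-mediated decay, at 3.11 FPKM in mKO and 1.30 FPKM in WT. The main Epha4 transcript, ENSMUST00000027451, which encodes the receptor of 986 residues, went the other way, with 23.1 FPKM in mKO and 24.0 FPKM in WT. Without the decay transcript Epha4 summed to 27.5 FPKM in mKO and 27.1 FPKM in WT. The main Ephb6 transcript had 15.4 FPKM in mKO and 14.4 FPKM in WT.

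The other 7 transcripts past 2-fold, chosen for mention after their values were seen, were scarce. In Unc5d the coding transcript ENSMUST00000209401 had 1.15 FPKM in mKO and 0.0417 FPKM in WT, while ENSMUST00000210785 had 0.523 FPKM in mKO and 1.40 FPKM in WT, and the sum of Unc5d hardly differed. In Ephb4 a coding transcript of 996 residues, ENSMUST00000111055, was at the floor in mKO and at 0.861 FPKM in WT, whereas the form of 987 residues had 3.23 FPKM in mKO and 2.51 FPKM in WT. Such values are estimates of how reads divide between overlapping transcripts. The remaining 4 were noncoding transcripts of Epha7, Ephb1 and Neo1, which were higher in mKO, and of Slit3, which was lower.

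Isoform shares kept much the same proportions. For 28 genes with a mean of at least 1 FPKM and at least 2 transcripts above the floor, the share of the gene's FPKM that moved between transcripts had a median of 5.78%, against 8.45% over protein-coding genes. Of these 28, Ephb4 alone, at 25.6%, moved by 20% or more, against 16.4% of 10431 protein-coding genes under the same conditions. Epha2, which is below 1 FPKM and outside this comparison, moved by 32.5%. The same transcript was the most abundant in both libraries in 27 of the 28 genes, against 90.7% of protein-coding genes. The exception was Slit2, where 2 full-length coding transcripts were close: ENSMUST00000174421 had 2.64 FPKM in mKO and 1.90 FPKM in WT, and ENSMUST00000173107 had 2.46 FPKM in mKO and 2.35 FPKM in WT. The 28 genes were not matched to the protein-coding genes for level or number of transcripts. These comparisons therefore cannot show whether their shares moved less than those of other genes. Of the genes with a mean of at least 5 FPKM, the largest shifts were 12.5% in Unc5d, 10.98% in Slit2, 9.16% in Epha4, 9.13% in Ephb6, 8.18% in Ephb2 and 7.59% in Unc5a. In Ephb2 the main transcript made up 56.7% of the sum in mKO and 62.8% in WT, and in Unc5a a retained-intron transcript made up 7.59% in mKO and was at the floor in WT.

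**Figure D4:**
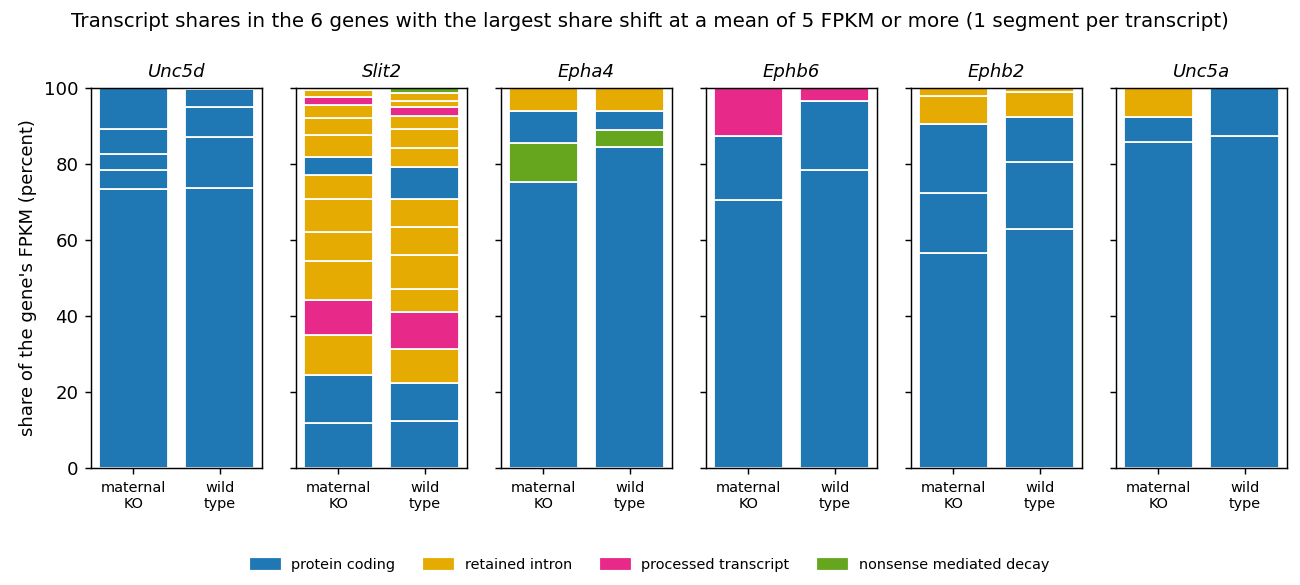
Share of the gene's summed FPKM (percent, vertical axis) held by each transcript, 1 segment per transcript, in mKO (left bar) and WT (right bar), for the 6 genes with the largest shift of shares at a mean of at least 5 FPKM. Shifts span 7.59% in Unc5a to 12.5% in Unc5d, and the lowest segment, the transcript with the highest mean, is coding in each gene.

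The makeup of the transcripts is given here for both libraries. The most abundant Epha7 transcript, ENSMUST00000080934, encodes 610 residues, where the full receptor with its kinase domain has 998 residues (ENSMUST00000029964). The short form held 41.8% of the Epha7 sum in mKO and 42.4% in WT, and the full form held 23.0% in mKO and 24.7% in WT. Transcripts with a retained intron held 12.3% of the summed FPKM of the guidance genes in mKO and 12.1% in WT, against 8.44% in mKO and 8.42% in WT over protein-coding genes. Their share was high in Slit2 (59.2% in mKO and 55.7% in WT), in the scarce Robo3 (54.3% in mKO and 67.0% in WT), and in Epha5 (49.7% in mKO and 52.4% in WT) and Unc5c (41.8% in mKO and 41.2% in WT). Shares of summed FPKM weigh abundant genes most, and the guidance genes were not matched to the protein-coding genes for level or length. The libraries were made from RNA freed of ribosomal RNA and not selected for poly(A) tails, so unspliced RNA was also sequenced, and its part in these shares was not tested. For 9 members an exon overlaps a gene on the opposite strand, and apart from Zyx, which overlaps Epha1 and had 9.76 FPKM in mKO and 9.81 FPKM in WT, those genes were below 1 FPKM in both libraries.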

How the data were processed

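RNA was extracted from brains of mKO and WT mice, and 6 RNAs per genotype were pooled into 1 strand-specific library after removal of ribosomal RNA. Per the labels, the authors' tools were Trimmomatic 0.36 for trimming, HISAT2 2.1.0 for alignment (genome build GRCm38.p5) and Cuffdiff for abundance. Its version and normalization are not given in the sources read. The deposited values are FPKM per Ensembl transcript with 1e-05 in place of 0, which summed to 1748662 in mKO and 1736519 in WT. The deposited ratio, log2, p-value and q-value columns hold the authors' comparison and were not used. A second table was also not used.

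Genotypes were taken from the sample labels. FPKM were summed per gene, and log2 ratios were taken after adding 0.1 FPKM, which understates the change of low genes. No test was run, since each genotype has 1 library. Counts past 1.2-fold (gene sums with a mean of at least 1 FPKM), past 2-fold (transcripts with a mean of at least 0.3 FPKM) and of isoform shifts of 20% or more (genes with a mean of at least 1 FPKM and at least 2 transcripts above the floor) were set beside the same count over all protein-coding genes or all transcripts. The shift is the summed absolute difference of transcript shares between the libraries, divided by 2. GENCODE M21 supplied the transcript types, coding lengths and 3′UTRs, and microRNA sequences came from RefSeq. GENCODE M21 held 99.5% of the transcript identifiers and all 166 of the guidance genes. Of these 166, 161 had the same coordinates there as in the deposited values. The prediction lists were read from the supplement of the study. The members, lists and tests were chosen with earlier results of these data known. Named were all 36 genes, the transcripts past 2-fold with a mean of at least 1 FPKM, the main transcripts, the 6 genes with the largest shifts at a mean of at least 5 FPKM, and the 3 highest and 3 lowest partners. Scripts ran in python 3.11.15 with numpy 2.4.6, pandas 2.3.3 and matplotlib 3.10.9, and were tested on simulated data. Alternatives changed the FPKM minimum, pseudocount, scaling, fold, shift threshold and seed match.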

Additional observations from a re-analysis of the deposited data

How the results depend on the processing

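Of 48 recomputed values, 37 stayed within 1.5 times the main count or, for medians, within 0.09 on the log2 scale, and 11 moved further. For genes 1.2-fold higher, the count of 1 became 0 at a mean of at least 5 FPKM, 0 at a fold of 1.5, and 2 with no minimum. For transcripts, with the minimum set in WT only, 3 were 2-fold higher and 6 were 2-fold lower, with the minimum set in mKO only, 9 were higher and 2 were lower, and with a minimum of 1 FPKM on the mean the counts were 2 and 0. The balance of 6 higher and 3 lower thus turns round with the library that carries the minimum. The count of genes with an isoform shift became 0 at a mean of at least 5 FPKM and 6 at a threshold of 10%. The seed match count of 4 became 2 with the most abundant coding transcript only and 0 for the 8-base match. No paired analysis was possible because there is 1 pooled library per genotype. A single library per genotype gives no error between animals, so small ratios such as those of the Eph receptors and ephrins cannot be told apart from variation between pools, and the unknown depth limits what can be said of minor transcripts.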
